A study of Mus musculus with 8 samples.

Results

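The interleukin-6 (IL-6) family was examined in whole aortas as 10 genes, chosen by name: the ligands Il6, Lif, Osm and Il11, the receptor chains Il6ra, Il6st, Lifr, Osmr and Il11ra1, and the feedback inhibitor Socs3. All 10 were found among the 48607 loci of the expression table, and 9 of them were among the 20506 loci that reached 1 FPKM in at least 3 libraries and were tested. The tenth, Il11, stayed below that level. FPKM counts fragments per kilobase of a transcript and is scaled to all fragments mapped in that library. For a gene with several loci, which was the case for 5 of the 10, the locus with the most counts was taken.

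The aortas came from atherosclerotic mice that all lacked apolipoprotein E and had eaten a Western diet for 12 weeks, and the question was what the loss of natriuretic peptide receptor C (NPRC, encoded by Npr3) changed. ApoE-/- mice, which become hypercholesterolaemic, served as controls of NPRC-/-ApoE-/- littermates, in which a frameshift made by CRISPR in exon 1 inactivates NPRC in the entire body. The study's methods name male ApoE-/- mice bought at 8 weeks of age, but do not give age and sex separately for the sequenced littermates. The titles name 5 ApoE-/- libraries (1 to 5) and 3 NPRC-/-ApoE-/- libraries (1 to 3), whereas the study's text gives 5 per group. A separate genotype entry conflicted with the title in 4 of the 8 libraries: the libraries titled ApoE-/- 4 and 5 were entered as NPRC-/-ApoE-/-, and those titled NPRC-/-ApoE-/- 1 and 2 were entered as ApoE-/-. Both labels agreed for ApoE-/- 1, 2 and 3 and for NPRC-/-ApoE-/- 3. Groups here follow the titles, and the members' values by genotype entry stand beside them. Npr3 did not separate the labels, because its transcript was at 0.62 to 1.69 FPKM in the ApoE-/- group and at 1.13 to 1.39 FPKM in the NPRC-/-ApoE-/- group (log2 fold change 0.10, standard error 0.28). A frameshift can leave the transcript in place. The total count was 62969165 to 86693276 per library. The series' design gives as many mice as libraries in each titled group, and the p-values measure the spread between these libraries.

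IL-6 family cytokines are secreted by leukocytes, endothelial cells, smooth muscle cells and fibroblasts, and they share the signal-transducing receptor chain gp130, the product of Il6st. IL-6 and IL-11 first bind their own alpha chains (Il6ra, Il11ra1) and then assemble gp130 pairs, whereas LIF uses gp130 with Lifr and oncostatin M uses gp130 with Osmr. The assembled receptor activates JAK kinases and the transcription factor STAT3, and STAT3 induces Socs3, whose protein binds gp130 and the kinases and shuts the signal down. In the atherosclerotic artery the family is known for acute phase and leukocyte-recruiting responses.

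The results turned on Il6, Lif and Socs3, which covered wide ranges over the libraries, and their promoters are therefore shown first. Sequences are the 250 bases before the gene start in RefSeq on GRCm38.p6, printed 5′ to 3′ on the strand of the gene, with the motif letters in capitals. The motifs searched on both strands were TTCNNNGAA and its narrower form TTCCNGGAA (STAT), GGGA and TTTCC with any base between them (NF-kB), TGANTCA (AP-1) and TGACGTCA (CRE). The Il6 window is chr5:30012864-30013113 on the plus strand, and it held an AP-1 match, TGAGTCA, beginning 249 bases before the start and an NF-kB match, GGGATTTTCC, beginning 44 bases before it. The Lif window, chr11:4257318-4257567 on the plus strand, held an AP-1 match, TGACTCA, 228 bases before the start. The Socs3 window, chr11:117969367-117969616 on the minus strand, held a STAT match, TTCTTAGAA, 154 bases before the start. This RefSeq start, 117969366, is downstream of the 5′ end of the Socs3 locus given below (chr11:117966079-117970047), so the window lies inside that locus.
Il6: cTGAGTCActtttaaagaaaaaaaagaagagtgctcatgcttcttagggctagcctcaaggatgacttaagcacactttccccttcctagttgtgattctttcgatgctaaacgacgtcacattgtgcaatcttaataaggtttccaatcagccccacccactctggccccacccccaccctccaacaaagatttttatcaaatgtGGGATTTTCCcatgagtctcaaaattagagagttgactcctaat
Lif: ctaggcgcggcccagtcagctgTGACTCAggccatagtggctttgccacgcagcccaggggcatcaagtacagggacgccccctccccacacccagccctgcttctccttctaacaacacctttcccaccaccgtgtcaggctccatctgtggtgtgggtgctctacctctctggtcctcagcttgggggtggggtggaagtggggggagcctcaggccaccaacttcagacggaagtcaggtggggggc
Socs3: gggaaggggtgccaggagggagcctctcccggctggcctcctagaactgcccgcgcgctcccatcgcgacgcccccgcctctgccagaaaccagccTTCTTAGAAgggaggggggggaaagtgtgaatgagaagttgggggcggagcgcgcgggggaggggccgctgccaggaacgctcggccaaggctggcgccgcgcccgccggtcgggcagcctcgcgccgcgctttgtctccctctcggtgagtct

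Of 32851 RefSeq promoter windows of the same length, 0.356% held the NF-kB letters, 6.75% the AP-1 letters and 7.02% the STAT letters. The narrower STAT form was in 0.913% and CRE in 1.55% of the windows, and neither was in a window of a member. One of the 2 windows of Il11 held an AP-1 match, TGAGTCA, 98 bases before the start at 4778141 on chromosome 7. The windows of Il6ra, Il6st, Lifr, Osmr and Il11ra1 held none of the 5 motifs. As for Socs3, the windows of Lifr, Osmr and Il11ra1 and the Il11 window with the match lay inside the loci given below. These matches describe the letters only, and binding was not measured. No promoter entry was matched for Osm.

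Il6 was also the member that the study assayed by quantitative PCR, and the primer pair shows which part of the transcript that assay reads. Both primers match exon 2 of the transcript ENSMUST00000026845 on GRCm38, at chr5:30013389-30013408 and chr5:30013528-30013547, and bound a product of 159 bases that spans no intron. All 4 annotated Il6 transcripts contain both sites.
Il6 forward primer: agttgccttcttgggactga
Il6 reverse primer: tccacgatttcccagagaac

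Among the ligands, Il6 transcripts were lower by title in the NPRC-/-ApoE-/- aortas with an unadjusted p under 0.05 in edgeR's quasi-likelihood test. Lif, Osm and Il11 did not reach that level, and no ligand had an adjusted p under 0.05 in that test. Here and below, a gene that passed the test had an unadjusted p under 0.05. Il6 (chr5:30013114-30019981, plus strand), the founding cytokine of the family and an inducer of acute phase proteins, was at 1.87, 4.57, 8.18, 2.96 and 0.21 FPKM in the libraries titled ApoE-/- 1 to 5. In NPRC-/-ApoE-/- 1 to 3 it was at 0.67, 0.06 and 0.24 FPKM. ApoE-/- 1 to 4 lay above all 3 NPRC-/-ApoE-/- libraries, and ApoE-/- 5 lay within their range, so the groups overlapped. The mean was 3.56 ± 3.03 FPKM (SD, n = 5) against 0.323 ± 0.313 FPKM (SD, n = 3). The fitted log2 fold change was -3.48 (standard error 1.15), a ratio of 0.0897, with an unadjusted p = 0.0147 and an adjusted p = 0.294 in edgeR's quasi-likelihood test (Benjamini-Hochberg). Without NPRC-/-ApoE-/- 3 the unadjusted p of edgeR's quasi-likelihood test was 0.0509. Grouped by genotype entry, the log2 fold change was -1.40 (standard error 1.39, unadjusted p = 0.343 in the same edgeR test). The 4 libraries with agreeing labels alone gave -4.29, with no test, as 1 of the groups then holds 1 library.

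Lif (chr11:4257557-4272514, plus strand), encoding leukaemia inhibitory factor, was at 0.89, 1.94, 3.35, 1.72 and 0.41 FPKM in ApoE-/- 1 to 5 and at 0.92, 0.22 and 0.55 FPKM in NPRC-/-ApoE-/- 1 to 3. ApoE-/- 2, 3 and 4 were above every NPRC-/-ApoE-/- library, and the other two ApoE-/- libraries were within the NPRC-/-ApoE-/- range. The log2 fold change was -1.58 (standard error 0.71, unadjusted p = 0.0519, adjusted p = 0.37 in edgeR's quasi-likelihood test (Benjamini-Hochberg)) by title and -0.68 (standard error 0.82) by genotype entry.

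Osm (chr11:4236420-4241026, plus strand), encoding oncostatin M, a cytokine made by macrophages, neutrophils and T cells, was at 0.77, 1.0, 1.23, 1.72 and 0.22 FPKM in ApoE-/- 1 to 5. In NPRC-/-ApoE-/- 1 to 3 it was at 0.71, 0.24 and 0.42 FPKM. As for Il6, ApoE-/- 1 to 4 were above all NPRC-/-ApoE-/- libraries, but ApoE-/- 5 was the lowest of the 8. The log2 fold change was -1.12 (standard error 0.62, unadjusted p = 0.103, adjusted p = 0.446 in edgeR's quasi-likelihood test) by title and 0.05 (standard error 0.70) by genotype entry. Osm and Lif are neighbours on chromosome 11, both on the plus strand and 16530 bases apart.

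Il11 (chr7:4772373-4782857, minus strand), encoding a cytokine known for its action on fibroblasts and smooth muscle cells, was close to the limit of detection. Its counts were 22, 18, 19, 41 and 5 in ApoE-/- 1 to 5 and 29, 0 and 0 in NPRC-/-ApoE-/- 1 to 3, or at most 0.19 FPKM. NPRC-/-ApoE-/- 1 was the second highest library and the other two of its group had no read, so the groups overlapped. The fit to all loci with a count gave a log2 fold change of -1.25 (standard error 1.28, unadjusted p = 0.349 in edgeR's quasi-likelihood test) by title and -0.17 by genotype entry. This rested on NPRC-/-ApoE-/- 1, without which the NPRC-/-ApoE-/- group held counts of 0 alone and the unadjusted p was 0.00159 (adjusted p = 0.0964) in the same edgeR test.

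**Figure D1:**
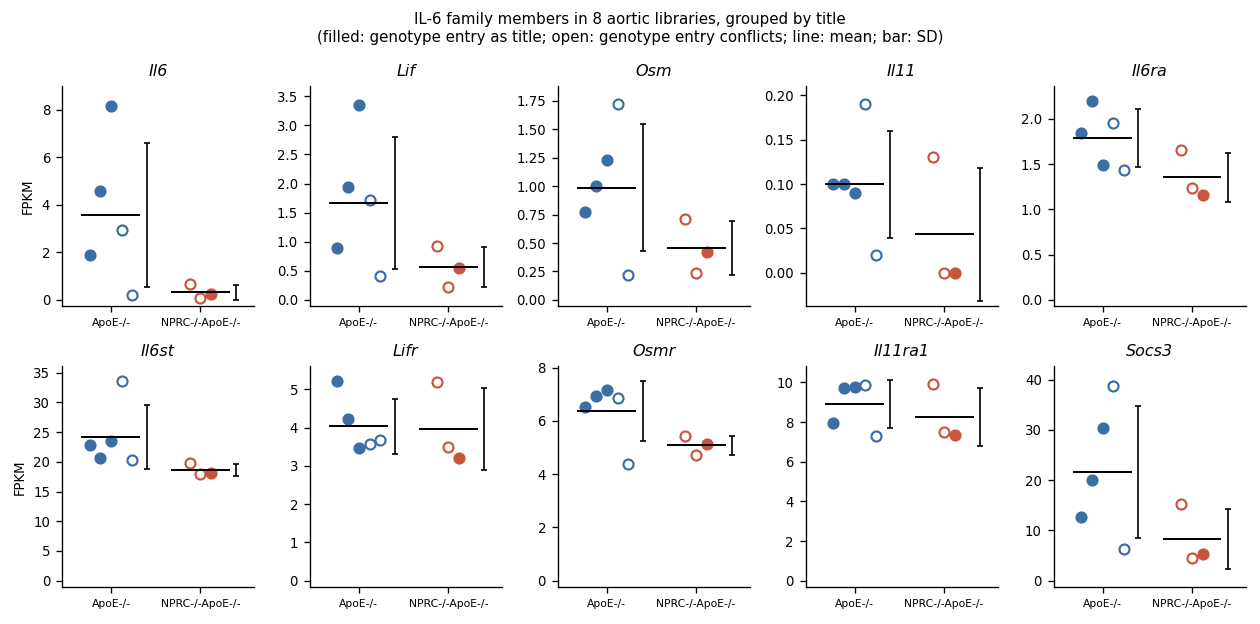
FPKM (linear axes) of the 10 genes in each library, with the libraries titled ApoE-/- in blue and those titled NPRC-/-ApoE-/- in red. Filled points are libraries whose genotype entry matches the title, open points those where it conflicts, horizontal lines the group means and vertical bars 1 SD, which for Il11 reaches below 0. Il6 runs from 0.06 to 8.18 FPKM, while each receptor gene stays within a 1.9-fold range over the 8 libraries.

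The receptor chains were expressed in every library and varied little, and none of the 5 passed the test. Il6st (chr13:112464070-112510086, plus strand), encoding gp130, had the highest level of the 10 genes per length in most libraries, at 22.88, 20.68, 23.46, 33.54 and 20.31 FPKM in ApoE-/- 1 to 5 and at 19.8, 17.93 and 18.12 FPKM in NPRC-/-ApoE-/- 1 to 3. On the FPKM scale the titled groups did not overlap, by a margin between 20.31 and 19.8, but on the log2 CPM scale with TMM scaling, on which libraries were compared for all loci, they did overlap. The log2 fold change was -0.37 (standard error 0.22, unadjusted p = 0.123, adjusted p = 0.47 in edgeR's quasi-likelihood test (Benjamini-Hochberg)) by title. By genotype entry it was 0.23 (standard error 0.24), in the opposite direction, with ApoE-/- 4, the highest library, then in the other group.

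Il6ra (chr3:89864059-89913196, minus strand), the ligand-binding chain for IL-6, was at 1.85, 2.2, 1.49, 1.96 and 1.44 FPKM in ApoE-/- 1 to 5 and at 1.66, 1.24 and 1.16 FPKM in NPRC-/-ApoE-/- 1 to 3. NPRC-/-ApoE-/- 2 and 3 were below all ApoE-/- libraries, and NPRC-/-ApoE-/- 1 was inside the ApoE-/- range. Its log2 fold change was -0.38 (standard error 0.18, unadjusted p = 0.0647, adjusted p = 0.391 in edgeR's quasi-likelihood test) by title and -0.11 (standard error 0.22) by genotype entry.

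Osmr (chr15:6813577-6874969, minus strand), the oncostatin M chain, was at 6.53, 6.92, 7.17, 6.87 and 4.39 FPKM in ApoE-/- 1 to 5 and at 5.43, 4.71 and 5.12 FPKM in NPRC-/-ApoE-/- 1 to 3. ApoE-/- 1 to 4 lay above the NPRC-/-ApoE-/- libraries and ApoE-/- 5 below them, the same arrangement as for Osm. The log2 fold change was -0.31 (standard error 0.20, unadjusted p = 0.15, adjusted p = 0.502 in edgeR's quasi-likelihood test) by title and -0.13 (standard error 0.23) by genotype entry. A locus named Osmr on the opposite strand, chr15:6867389-6872631, carried 937 to 1930 counts per library, and whether the counting used strand is not given in the sources used here.

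Lifr (chr15:7090614-7197489, plus strand), the LIF chain that lies 215644 bases from Osmr, was at 5.22, 4.22, 3.48, 3.57 and 3.69 FPKM in ApoE-/- 1 to 5 and at 5.2, 3.5 and 3.21 FPKM in NPRC-/-ApoE-/- 1 to 3. ApoE-/- 1 and NPRC-/-ApoE-/- 1 were the highest libraries, and the groups covered the same range. The log2 fold change was -0.00 (standard error 0.18, unadjusted p = 0.99 in edgeR's quasi-likelihood test) by title and -0.27 (standard error 0.17) by genotype entry. Il11ra1, the IL-11 alpha chain, was counted in 1 locus with Galt (chr4:41699989-41769474, plus strand), so reads of these genes could not be separated, and its near-identical paralog Il11ra2 adds to the uncertainty. The locus was at 7.95, 9.7, 9.77, 9.89 and 7.29 FPKM in ApoE-/- 1 to 5 and at 9.94, 7.49 and 7.37 FPKM in NPRC-/-ApoE-/- 1 to 3. The libraries of both titled groups were spread over the same range, and the log2 fold change was -0.10 (standard error 0.18, unadjusted p = 0.586 in edgeR's quasi-likelihood test) by title. By genotype entry it was also -0.10 (standard error 0.18, unadjusted p = 0.612 in the same edgeR test).

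Socs3 (chr11:117966079-117970047, minus strand), the feedback inhibitor of gp130 signalling, was at 12.71, 19.98, 30.39, 38.8 and 6.35 FPKM in ApoE-/- 1 to 5 and at 15.22, 4.52 and 5.34 FPKM in NPRC-/-ApoE-/- 1 to 3. ApoE-/- 2, 3 and 4 were above all NPRC-/-ApoE-/- libraries, while NPRC-/-ApoE-/- 1 exceeded ApoE-/- 1 and 5. The mean was 21.6 ± 13.1 FPKM (SD, n = 5) against 8.36 ± 5.96 FPKM (SD, n = 3). The log2 fold change was -1.40 (standard error 0.65, unadjusted p = 0.0589, adjusted p = 0.38 in edgeR's quasi-likelihood test (Benjamini-Hochberg)) by title. By genotype entry it was 0.07 (standard error 0.76), and the 4 libraries with agreeing labels gave -1.92, with no test.

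Over the family, 1 of the 9 tested genes, Il6, had an unadjusted p under 0.05 by title and was lower, and it also met the study's criterion for a changed gene, a fold change above 2 or below 0.5 with such a p. Of all 20506 tested loci, 7.13% were lower with an unadjusted p under 0.05 and 2.39% were lower by the study's criterion. No member had an adjusted p under 0.05 in edgeR's quasi-likelihood test, which called 0 of all loci at that level. DESeq2 gave Il6 an adjusted p = 0.0452, while it gave 3.17% of all tested loci an adjusted p under 0.05, and over all alternatives with a test the adjusted p of Il6 ran from 0.0452 to 1. None of the 9 had titled groups that did not overlap on the log2 CPM scale, against 7.41% of all tested loci. All 9 fitted log2 fold changes were below 0, Lifr by less than 0.01, while 50.9% of all tested loci had a value below 0. Several members were correlated over the same libraries, as given below, so the 9 signs are not separate observations. The median of the 9 was -0.38 and that of all tested loci -0.006. By genotype entry 6 of the 9 were below 0 and 3 above, with a median of -0.11.

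Single libraries decided these counts. Without ApoE-/- 5, 6 members had an unadjusted p under 0.05 in edgeR's quasi-likelihood test and 4 had groups that did not overlap, where the shares of all tested loci were 18.7% and 14.3%. Without NPRC-/-ApoE-/- 1 the corresponding counts were 4 and 3, where the shares were 21.6% and 29.6%. Without ApoE-/- 1 the counts were 3 and 0 (13.3% and 9.71% of all tested loci), and without NPRC-/-ApoE-/- 3 they were 0 and 0 (6.7% and 11%). By genotype entry 0 of the 9 passed, where 1.31% of all tested loci had an unadjusted p under 0.05.

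The ligands and Socs3 differed between libraries of the same title far more than the receptors did. The SD of log2 CPM (counts scaled to library size with TMM factors, prior count 2) over the 5 libraries titled ApoE-/- was 2.06 for Il6, 1.22 for Lif, 1.17 for Osm and 1.12 for Socs3. Of all tested loci, 99% had a smaller SD than Il6, 97.5% a smaller one than Lif, 97.2% a smaller one than Osm and 96.9% a smaller one than Socs3. The receptors had SDs of 0.20 (Lifr) to 0.36 (Il6st), near the median of 0.31 over all tested loci. In FPKM, the highest library exceeded the lowest 136-fold for Il6, 15.2-fold for Lif, 8.58-fold for Socs3 and 7.82-fold for Osm, but 1.36-fold to 1.9-fold for the 5 receptors.

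The variable genes, and also Osmr, a receptor that varied little, followed a similar order over the 8 libraries. Log2 CPM of Il6 was correlated with that of Lif (Pearson's r = 0.97, exact permutation p = 0.000174; Spearman's rho = 0.98, p = 0.000397), with adjusted values of 0.00156 and 0.00357 over the 9 relations computed. For Socs3 r was 0.92 (exact permutation p = 0.0026, adjusted 0.00586) and rho 0.88 (p = 0.00724, adjusted 0.013). For Osmr r was 0.92 (exact permutation p = 0.00248, adjusted 0.00586) and rho 0.93 (p = 0.00223, adjusted 0.01). For Osm r was 0.91 (exact permutation p = 0.00231, adjusted 0.00586) and rho 0.90 (p = 0.00456, adjusted 0.013). Without ApoE-/- 3 and NPRC-/-ApoE-/- 2, the libraries farthest from the median of Il6, r was 0.94 for Lif, 0.90 for Osmr, 0.87 for Osm and 0.86 for Socs3. It was then 0.97 for Il6ra, the highest of all members, 0.78 for Il11, 0.67 for Il11ra1, 0.55 for Il6st and 0.38 for Lifr.

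Other loci reached similar values. Of all tested loci, 0.122% had an r with Il6 at least as high as Lif, 2.07% one at least as high as Osmr, 2.09% as Socs3 and 2.68% as Osm. The other receptors had an r of 0.81 (Il6ra), 0.77 (Il11ra1), 0.64 (Il6st) and 0.33 (Lifr), with Spearman's rho of 0.69, 0.81, 0.88 and 0.48. Their exact permutation p-values adjusted over the 9 relations were 0.0293, 0.0472, 0.08 and 0.404 for r and 0.0892, 0.0327, 0.013 and 0.243 for rho. Il11, with 2 libraries at a count of 0, had an r of 0.82 (exact permutation p = 0.0137, adjusted 0.0246) and a rho of 0.60 (p = 0.125, adjusted 0.14). All these values pool the titled groups, which were too small for a value within each, and the points share each library's depth and tissue composition.

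**Figure D2:**
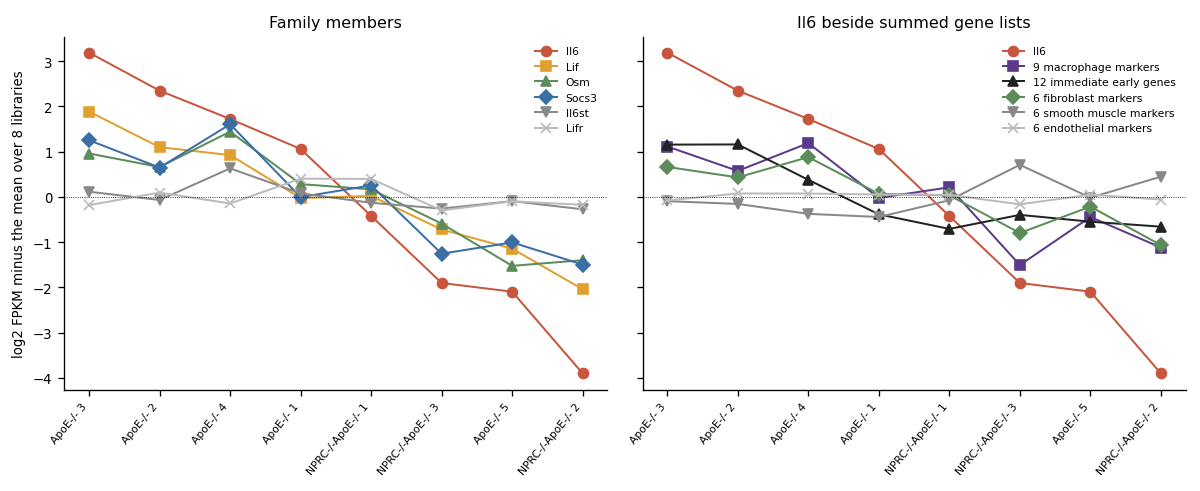
Log2 FPKM in each library minus the mean over the 8 libraries, with the libraries ordered by their Il6 level and lines joining the points of 1 gene or list. The left panel shows 6 of the 10 genes, the right panel Il6 beside the summed FPKM of macrophage, fibroblast, smooth muscle and endothelial markers and of immediate early genes. Lyz2 makes up most of the macrophage sum and Acta2 most of the smooth muscle sum. Il6, Lif, Osm and Socs3 are low in NPRC-/-ApoE-/- 2 and 3 and ApoE-/- 5, while Il6st and Lifr stay close to 0.

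Markers of cell types moved over the same libraries. The summed level of 9 macrophage markers was 954, 1443, 2097, 2209 and 712 FPKM in ApoE-/- 1 to 5 and 1122, 446 and 341 FPKM in NPRC-/-ApoE-/- 1 to 3. As for Il6, it was low in ApoE-/- 5 and NPRC-/-ApoE-/- 2 and 3. Most of this sum was Lyz2, at 662.25, 973.11, 1411.29, 1543.97 and 477.85 FPKM in ApoE-/- 1 to 5. In NPRC-/-ApoE-/- 1 to 3 Lyz2 was at 807.4, 287.11 and 219.68 FPKM. Mrc1 went another way in ApoE-/- 5, at 10.49 FPKM against 9.37 FPKM in ApoE-/- 4. The locus of Cd68 holds 8 gene names. Of the 9 markers, 4 had an unadjusted p under 0.05 in edgeR's quasi-likelihood test by title and were lower, beside 7.13% of all tested loci. The median log2 fold change over the 9 was -1.01. All 6 smooth muscle markers passed and were higher, as were 6.51% of all tested loci (median 0.64, summed level 1295 to 1741 FPKM against 1673 to 2880 FPKM). Of 6 fibroblast markers 3 passed and were lower, again beside 7.13% of all tested loci (median -0.73, 319 to 681 FPKM against 177 to 379 FPKM). Of 6 endothelial markers 0 passed (median -0.07, 89.3 to 99.3 FPKM against 84.1 to 97.2 FPKM). The summed T cell markers were at 4.32 to 9.66 FPKM against 2.5 to 5.48 FPKM, with 1 of 2 tested genes passing, lower. The neutrophil markers were at 3.39 to 13.8 FPKM against 2.58 to 12.4 FPKM, with 1 of 4 tested genes passing, lower. The B cell markers were at 1.07 to 17.2 FPKM against 0.44 to 2.7 FPKM, with 0 of 1 passing. The 17.2 FPKM was that of ApoE-/- 2, and the other ApoE-/- libraries had at most 3 FPKM. White adipocyte (40 to 227 FPKM against 72.9 to 159 FPKM) and brown fat markers (111 to 544 FPKM against 319 to 521 FPKM) each held 4 tested genes, of which 0 passed. The 4 mesothelial markers (0.16 to 4.4 FPKM against 0.15 to 0.75 FPKM) were below the filter, so 0 of them were tested. Their 4.4 FPKM was also that of ApoE-/- 2, and the other ApoE-/- libraries had at most 0.44 FPKM. By genotype entry 0 tested genes of these marker lists passed, and the medians were -0.15 for the macrophage, 0.24 for the smooth muscle, -0.07 for the fibroblast and -0.02 for the endothelial markers. The marker lists were chosen with earlier results of these data known, so their counts beside the shares of all loci are a description. In whole aorta, fewer cells of a type and less RNA per cell cannot be told apart, and the part of these markers in the Il6 result was not tested.

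Downstream of the receptors, 2 of 12 tested JAK, STAT, adaptor and feedback genes had an unadjusted p under 0.05 by title, both lower. The share of all tested loci lower with such a p was 7.13%, and the median log2 fold change of the 12 was -0.19. Jak1, a kinase bound to gp130, was at 5.43 to 6.88 FPKM in ApoE-/- and at 5.34, 4.46 and 4.47 FPKM in NPRC-/-ApoE-/- 1 to 3. Its log2 fold change was -0.38 (standard error 0.14, unadjusted p = 0.0258, adjusted p = 0.322 in edgeR's quasi-likelihood test). Stat3 itself, chosen here after its values were seen, was at 5.28 to 8.85 FPKM against 5.59, 5.27 and 6.27 FPKM (log2 fold change -0.31, standard error 0.20, unadjusted p = 0.147 in the same edgeR test). By genotype entry 0 of the 12 passed, and the values were -0.04 for Jak1 and -0.18 for Stat3.

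Adam10 and Adam17, the membrane proteases that release the ectodomain of the IL-6 receptor, did not pass the test. Adam10 was at 7.27 to 10.52 FPKM in ApoE-/- and at 8.1, 5.9 and 5.64 FPKM in NPRC-/-ApoE-/- 1 to 3 (log2 fold change -0.38, standard error 0.19). Adam17 was at 4.85 to 6.05 FPKM against 5.68, 4.24 and 3.72 FPKM (log2 fold change -0.28, standard error 0.17). For both, NPRC-/-ApoE-/- 2 and 3 were the lowest of the 8 libraries. By genotype entry the values were 0.03 for Adam10 and -0.11 for Adam17.

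Of 12 other cytokines and receptor chains of the family, 11 had a locus, 6 were tested and 0 passed (median log2 fold change -0.21). Among the most abundant was the locus of Cntf, ciliary neurotrophic factor, which also holds Zfp91, at 4.19 to 6.05 FPKM against 4.71, 5.36 and 4.42 FPKM (log2 fold change -0.03, standard error 0.12). Il31ra, an IL-31 receptor chain whose gene lies 9811 bases from Il6st, was below the filter and is named after its values were seen. Its locus, which also holds Gm3226, was at 0.59, 0.79, 0.4, 0.88 and 1.18 FPKM in ApoE-/- 1 to 5 and at 0.28, 0.14 and 0.35 FPKM in NPRC-/-ApoE-/- 1 to 3, without overlap. Unlike for Il6, ApoE-/- 5 was the highest library. The fit to all loci with a count gave -1.50 (standard error 0.39, unadjusted p = 0.00328, adjusted p = 0.292 in edgeR's quasi-likelihood test) by title and 0.89 by genotype entry.

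Among genes known to be induced by STAT3 or IL-6, part of the list was lower by title. Of 17 tested genes, 15 had a log2 fold change below 0 and 2 above, with a median of -0.91. With an unadjusted p under 0.05 in edgeR's quasi-likelihood test 8 were lower and 0 higher, and 4 met the study's criterion. The background is again the 7.13% of loci that were lower with such a p. This list too was chosen with earlier results of these data known, so its count beside that share is a description. Saa3, an acute phase apolipoprotein made by macrophages and fat, was at 3.51, 5.76, 8.26, 5.59 and 2.03 FPKM in ApoE-/- 1 to 5 and at 1.72, 0.3 and 0.29 FPKM in NPRC-/-ApoE-/- 1 to 3. All ApoE-/- libraries were above all NPRC-/-ApoE-/- libraries (log2 fold change -2.72, standard error 0.73, unadjusted p = 0.00491 in edgeR's test). The cell cycle gene Ccnd1 was at 6.59 to 11.29 FPKM against 5.58, 2.68 and 4.04 FPKM, without overlap (-1.21, standard error 0.29, unadjusted p = 0.00271 in edgeR's test). The survival kinase Pim1 was at 6.29 to 13.89 FPKM against 7.22, 3.68 and 5.46 FPKM (-0.99, standard error 0.32), and the survival factor Mcl1 at 14.05 to 20.75 FPKM against 11.32, 13.01 and 12.01 FPKM (-0.53, standard error 0.19). Bcl3, an NF-kB cofactor (-0.92, standard error 0.30), and Steap4, a metalloreductase (-0.82, standard error 0.25), were the others named by p. The smallest adjusted p of the list was 0.255 in edgeR's test, and by genotype entry 0 of the 17 passed, with a median of -0.14 and values of -0.55 for Saa3, -0.03 for Ccnd1, -0.27 for Pim1 and 0.03 for Mcl1.

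Immediate early genes, which are transcribed within minutes of many stimuli, were also lower by title in part. Of 12 tested genes, 8 had an unadjusted p under 0.05 in edgeR's quasi-likelihood test and were lower by title, beside 7.13% of all tested loci, 0 were higher, and the median log2 fold change was -1.19. As for the STAT3 list, the choice was made with earlier results of these data known. Fos, an AP-1 subunit, was at 15.33, 80.34, 104.91, 41.86 and 12.73 FPKM in ApoE-/- 1 to 5 and at 12.77, 11.9 and 13.08 FPKM in NPRC-/-ApoE-/- 1 to 3 (log2 fold change -2.03, standard error 0.72, unadjusted p = 0.0207 in edgeR's test). ApoE-/- 2, 3 and 4 stood apart, and ApoE-/- 1 and 5 were near the NPRC-/-ApoE-/- libraries. Jun, its dimer partner, was at 28.52 to 44.05 FPKM against 21.01, 20.27 and 20.24 FPKM, without overlap (-0.70, standard error 0.17, unadjusted p = 0.00254 in edgeR's test). Atf3 (-0.83, standard error 0.28), Egr2 (-1.35, standard error 0.51), Ier2 (-1.41, standard error 0.58) and Fosb (-1.51, standard error 0.62) also passed before adjustment. The summed level of the 12 was 122, 356, 355, 207 and 109 FPKM in ApoE-/- 1 to 5 and 97.6, 101 and 121 FPKM in NPRC-/-ApoE-/- 1 to 3, and its part in the Il6 result was not tested. The smallest adjusted p of the list was 0.255 in edgeR's test, and by genotype entry 0 of the 12 passed, with a median of -0.44 and values of -0.98 for Fos and -0.06 for Jun.

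**Figure D3:**
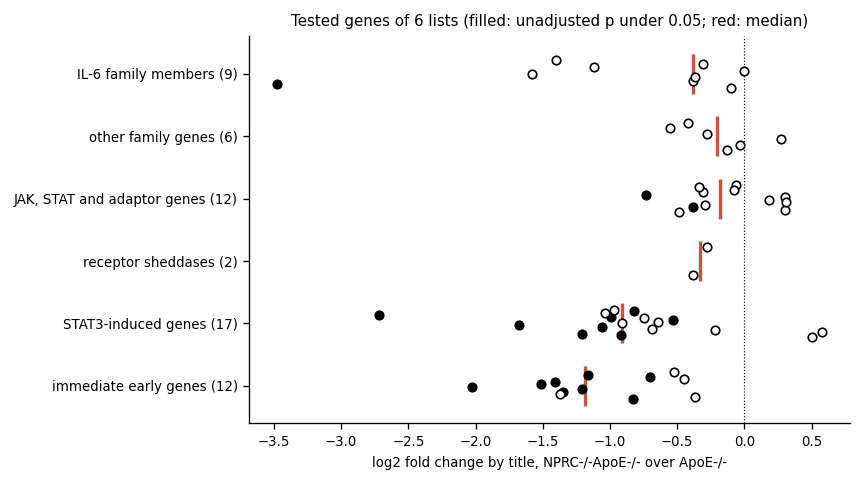
Log2 fold change by title (NPRC-/-ApoE-/- over ApoE-/-) of each tested gene in 6 lists, with the number of tested genes in brackets. Filled points have an unadjusted p under 0.05 in edgeR's quasi-likelihood test, open points do not, and red lines are list medians, from -1.19 for the immediate early genes to -0.19 for the JAK, STAT and adaptor genes.

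The genes whose log2 CPM over the 8 libraries was most like that of a member were looked up among 17193 loci with 1 gene name and a mean of at least 1 FPKM. With so many loci and 8 libraries, high values of r are frequent, and they are given as a description. For Il6 they were Pim1 and C3 (both r = 0.991) and Kif21b (0.989), where C3 is the central complement component. For Lif they were Tubb2b (0.988), Nfkb1 (0.987), an NF-kB subunit, and Pip4k2b (0.986), and for Osm Gm5425, Mpp6 (both 0.989) and St3gal1 (0.985). For Socs3 they were Sdc1 (0.996), the proteoglycan syndecan-1, Rftn1 and the chemokine gene Cx3cl1 (both 0.995).

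For the receptors, the most similar genes to Il6ra were Ms4a6b (r = 0.977), Smim15 and Haus7 (both 0.971), and to Il6st BC048403 (0.973), 2610301B20Rik (0.971) and the adaptor gene Gab2 (0.967). Osmr was most like Plk3, Pxn (both 0.983) and Ucp2 (0.982). Lifr was most like Gm17812 (0.959), Pcyox1 (0.956) and Noc3l (0.922), the lowest values among the members. The Il11ra1 locus was most like Mrps26 (0.996), C2cd2l and Ric8a (both 0.995).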

How the data were processed

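Poly(A) RNA of 8 whole aortas was sequenced. The authors removed poor bases (cutadapt 1.9 per the submitters' processing notes), mapped the 150-base read ends with HISAT2, assembled loci with StringTie, and deposited unnormalized counts and FPKM values of 48607 loci. The positions are those of GRCm38. How the counts were derived and whether strand was used is not given in the sources used here.

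The 20506 loci that reached 1 FPKM in 3 or more libraries entered the test, made on the deposited counts in edgeR 4.0.16 under R 4.3.3 (TMM, quasi-likelihood test, Benjamini-Hochberg adjustment over all tested loci). Deposited FPKM values are printed as levels. Log2 CPM used TMM scaling and a prior count of 2. The biological coefficient of variation was 0.327, and the number of libraries limits the precision. No pair of libraries was a duplicate (smallest mean chi-square per locus 100.7). Replicate numbers come from the titles. The fit was tested on simulated data. Correlations used exact permutation of all 40320 pairings with scipy 1.17.1.

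The members and lists were chosen with earlier results of these data known. All members are named. Of the pathway lists, genes with an unadjusted p under 0.05 are named, at most 6 a list by p, or the 2 most abundant where there was none, and for each tested member the 3 most similar loci. The results of 2 genes that this rule names are not reported here. Alternatives covered the label, DESeq2 1.42.0, edgeR's exact test, limma 3.58.1, scaling, filter, replicate block, symbol rows and each library left out. Protein sequences were not used here.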

Additional observations from a re-analysis of the deposited data

Results flagged for a closer look

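Il11 in the library titled NPRC-/-ApoE-/- 2 lay far below the others of the 5 libraries entered as ApoE-/-, with a log2 CPM of -5.29, which stands for a count of 0. It was 1 of 20 groups of libraries looked at in this way, and chance alone marks about 1 in 20 groups.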

How the results depend on the processing

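The count of members with an unadjusted p under 0.05, 1 by title in edgeR's quasi-likelihood test, was 3 with no filter on low values (10.4% of all loci tested in that setting, against 13.6% in the reported one), 3 with DESeq2 (16.7%) and edgeR's exact test (12.5%), 4 with limma-voom quality weights (26.4%), 2 with library size only (12.8%), 0 by genotype entry (1.31%) and 0 with a mean of at least 5 FPKM (17.3%), which removes Il6. Leaving out each library gave 0 to 6 (6.5% to 21.6% of all tested loci). The count by the study's criterion, 1 as reported (3.47% of all tested loci in either direction), was 3 with no filter (5.12%), DESeq2 (3.89%), the exact test (3.87%) and voom weights (7.27%). It was 2 with library size only (3.25%), and 0 by genotype entry (0.463%) and with the stricter filter (2.68%). With each library left out it was 0 to 4 (1.97% to 7.97%). With the replicate block over the 6 libraries numbered 1 to 3 both counts were 2 (8.84% and 3.9% of all tested loci). In the same 6 libraries without it they were 5 and 4 (12.9% and 4.47%). Il6 had a log2 fold change of -4.33 with the block against -3.93 without it. Libraries of the same number deviated with correlations of -0.31, -0.11 and 0.01, and 0 of the 6 libraries correlated best with its own number. So few libraries cannot decide whether those of the same number shared a litter or a batch, and the labels name neither. Members without overlap were 0 (7.41% of all tested loci). They were 1 (Il6st) in FPKM and with library size only and 4 in those 6 libraries, settings for which no share of all loci is given here. With each library left out they were 0 to 4 (8.88% to 29.6%). The median of -0.38 was -0.75 with no filter, which adds Il11, -0.11 by genotype entry, and -0.53 to -0.30 with each library left out. By genotype entry Osm (0.05), Il6st (0.23) and Socs3 (0.07) changed sign. Lifr, at 0, was 0.0016 with no filter, 0.0032 with DESeq2 and median-ratio scaling, and -0.22 to 0.11 with each library left out, among them 0.09 and 0.0048 without ApoE-/- 1 and 2. Il6 passed the adjusted threshold with DESeq2 only (log2 fold change -3.48, adjusted p = 0.0452), and its adjusted p over the alternatives with a test reached 1. The causes of these shifts were not tested. With counts of 0 to 41, depth limits Il11, whose log2 fold change of -1.25 was -3.97 with voom quality weights (adjusted p = 0.166).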

Other observations

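A second locus named Il6, downstream of the gene at chr5:30021222-30023218 with no strand given, had counts of 57, 72, 407, 63 and 18 in ApoE-/- 1 to 5 and 53, 0 and 21 in NPRC-/-ApoE-/- 1 to 3. ApoE-/- 3 was the highest and NPRC-/-ApoE-/- 2 the lowest library there, as for the main Il6 locus. A second locus named Il6st, downstream at chr13:112510395-112512800, had 346 to 627 counts in ApoE-/- and 394 to 572 in NPRC-/-ApoE-/-. A locus named Il6ra on the opposite strand, chr3:89871893-89876352, had 424 to 729 counts in ApoE-/- and 350 to 550 in NPRC-/-ApoE-/-.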
